A study of Mus musculus with 28 samples.

Results

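The interferon response genes described here are 9 genes that interferons are known to switch on, *Ifit1*, *Ifit3*, *Ifi27*, *Ifitm3*, *Isg15*, *Irf7*, *Irf9*, *Bst2* and *Oasl2*. They were chosen by name and were found by gene identifier among the 36358 genes of the tissue table, which held 7 of them, and the 37974 genes of the cell table, which held all 9. *Isg15* and *Bst2* were not analysed here in the tissue. All samples came from C57BL/6 mice, for which no transgene, deletion or treatment is given. EZ-SEZ/SVZ tissue, the ependymal and subependymal wall of the lateral ventricle where it covers the striatum, was sequenced as total RNA from mice of 3 weeks (3 samples) and 18 months (3 samples). Single cells were picked by hand from the P1 gate, 1 of 2 set by cell size and complexity, amplified by Smart-seq2 and assigned to 3 subpopulations: Prom1+ cells (3 at 1 month, 3 at 24 months), Gfap+ cells (2 at 1 month, 5 at 24 months) and Dlx2+/Dcx+ cells (5 at 1 month, 4 at 24 months). The ages therefore differ between the tissue and the cells. The labels tie no cell to an animal, and each subpopulation at each age counts as 1 sample and no difference between cells of the ages was tested.

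Interferons are secreted proteins that alert cells to viruses and other danger. Type I interferons bind a receptor of *Ifnar1* and *Ifnar2*, whose kinases activate transcription factors that join IRF9 in a complex, and this binds the interferon-stimulated response element in the promoters of interferon-stimulated genes. Interferon gamma acts through *Ifngr1* and *Ifngr2* on promoters with a gamma-activated site. Among the 9 genes, *Irf9* encodes the DNA-binding subunit of that complex and *Irf7* a regulator that raises interferon production itself. *Ifit1* and *Ifit3* encode proteins that bind viral RNA or the proteins that do so, *Oasl2* belongs to the oligoadenylate synthetase family, *Isg15* encodes a ubiquitin-like modifier, *Ifitm3* and *Bst2* encode membrane proteins that block virus entry and release, and *Ifi27* encodes a small membrane protein. In the brain, microglia, endothelial cells and other glia are all known to respond to interferon.

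The letters of the interferon-stimulated response element occurred in the promoters of most of these genes. RefSeq promoter windows of GRCm38.p6, from 250 bases before to 50 bases after the start site, were at hand for 8 of the 9 genes, all but *Ifi27*. The letters searched for it, on both strands, were GAAA, any 2 bases and GAAA again. They occurred in the windows of 5 of the 8 (*Ifit1*, *Ifit3*, *Ifitm3*, *Isg15* and *Bst2*) and in 3.44% of all 32851 windows. They were not found in the windows of *Irf7*, *Irf9* and *Oasl2*. TTCNNNGAA, the core of the gamma-activated site, occurred in *Ifitm3* and *Bst2* and in 8.3% of all windows. The stretches upstream of the start that hold the first motif are shown because they carry the feature that these genes share, with the matches in capitals, which read TTTC, 2 bases and TTTC where the match is on the other strand.
Ifit1, chr19:34640765-34640833, plus strand: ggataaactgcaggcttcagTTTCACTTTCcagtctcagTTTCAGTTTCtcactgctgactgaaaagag
Ifit3, chr19:34583353-34583436, plus strand: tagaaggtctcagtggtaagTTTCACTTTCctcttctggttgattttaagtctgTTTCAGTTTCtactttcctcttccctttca
Ifit3b, chr19:34607749-34607832, plus strand: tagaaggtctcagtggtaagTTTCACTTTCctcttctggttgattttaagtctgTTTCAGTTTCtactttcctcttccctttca
Isg15, chr4:156200855-156200916, minus strand: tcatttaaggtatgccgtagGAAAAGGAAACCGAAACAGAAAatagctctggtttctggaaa
Bst2, chr8:71537567-71537622, minus strand: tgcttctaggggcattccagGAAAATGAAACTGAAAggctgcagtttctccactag
*Ifit1*, *Ifit3* and *Bst2* each held 2 matches and *Isg15* held 3, which overlap in *Isg15* and *Bst2*. *Ifit3b* is a neighbouring near copy of *Ifit3* and is shown because the stretch is the same in all 84 bases. In *Ifitm3* the 2 matches lay just after the start site. Among 62 other interferon-stimulated genes with a window, 31 held the same letters (50%). A match describes these letters and is not a binding site.

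The values are FPKM, the number of fragments divided by transcript length in kilobases and by the sample's mapped fragments. The low values of genes with 1 transcript lay in steps, which gave a depth of about 18400000 to 22300000 fragments per tissue sample and of 440000 to 6580000 fragments per cell. The Prom1+ cells had 3050000 to 6580000 fragments each, the Gfap+ cells 440000 to 2310000 and the Dlx2+/Dcx+ cells 1880000 to 3070000. In the tissue, 11733 to 12127 genes reached 1 FPKM, and r across genes lay between 0.889 and 0.916 for pairs within an age and between 0.861 and 0.894 for pairs of different ages. The labels do not tie tissue samples to separate mice, so p measures the spread between these samples.

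In the tissue, none of the 6 genes that could be tested passed the test between 18 months and 3 weeks, although all 6 had estimates above 0, which means higher at 18 months. That of *Ifit1* changed sign when any one of 4 samples was left out, replicates 1 and 2 of 18 months and replicates 1 and 3 of 3 weeks, and that of *Ifitm3* fell to 0 without replicate 1 of 3 weeks. The test was limma on log2(FPKM + 1), over the 12287 genes with at least 1 FPKM in at least 3 of the 6 samples, and a gene passed with a Benjamini-Hochberg adjusted p under 0.05. Of all genes tested, 4.92% passed, 2.51% as higher at 18 months and 2.42% as lower. The log2 fold changes, which compare FPKM + 1 at 18 months with that at 3 weeks, ran from 0.06 to 1.07 with a median of 0.56, where all genes tested had a median of 0.09 and 58.8% of them were above 0. At an unadjusted p under 0.05, *Ifi27* and *Irf9* were higher, 2 of 6, and 15.4% of all genes tested were. At the limits of the study's methods, which ask for a change of over 1 on the log2 scale and for p under 0.05 with no adjustment, none of the 6 passed, against 3.9% of all genes and 1.83% as higher. In none of the 7 genes did the samples of one age all lie above those of the other, a pattern that 33.1% of the genes tested showed, 20.9% in the higher direction. Because whole tissue was sequenced, more cells that express a gene and more RNA per cell cannot be told apart.

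**Figure D1:**
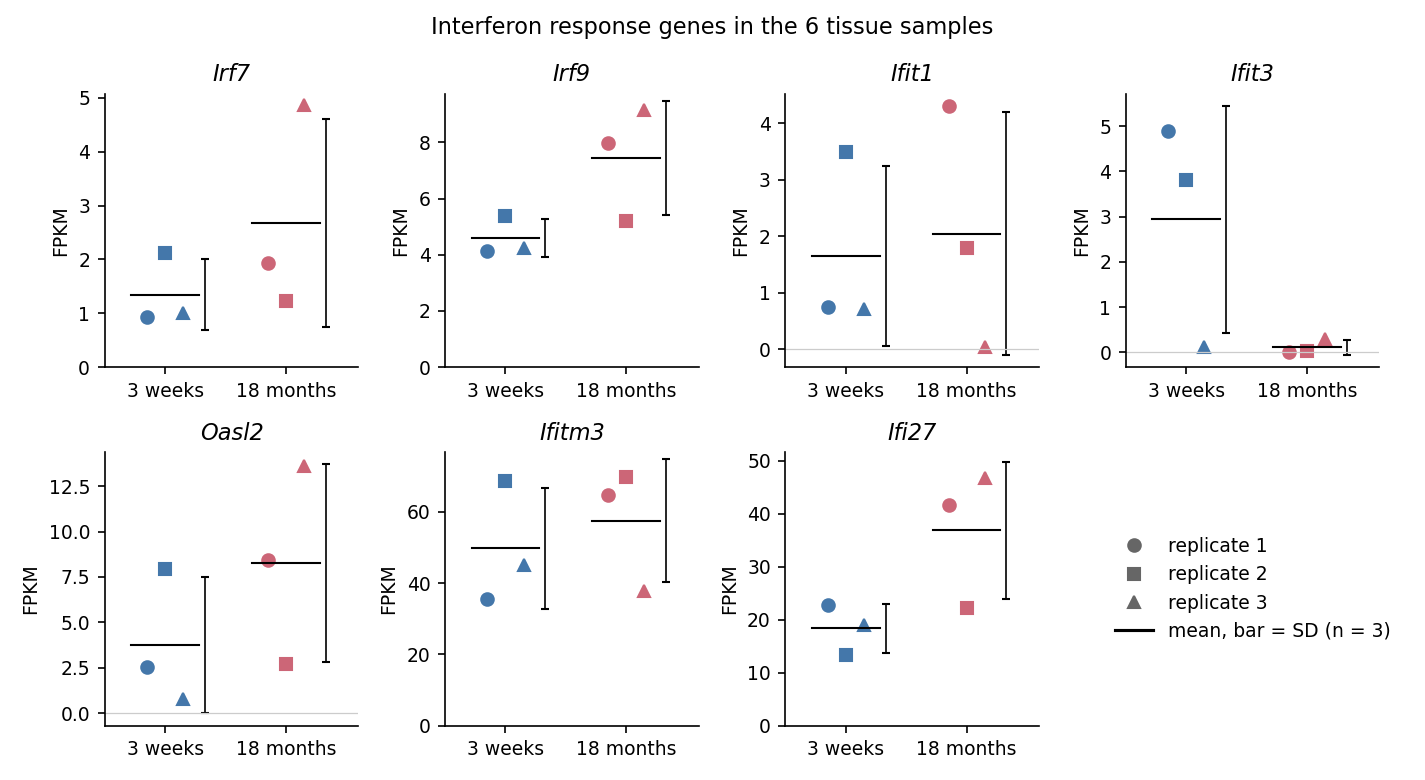
FPKM of the 7 genes (vertical axes, one panel per gene) in the 3 samples of 3 weeks (blue) and the 3 of 18 months (red), with the mean as a line and the SD as a bar beside it (n = 3). Every panel shows overlap between the ages, and 6 of the 7 genes, all but *Ifit3*, had their highest value at 18 months.

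*Irf9*, the DNA-binding subunit of that complex (chromosome 14 of GRCm38, 55603571 to 55610030), had 7.97, 5.19 and 9.14 FPKM at 18 months and 4.15, 5.39 and 4.25 FPKM at 3 weeks. Replicate 2 of 18 months lay below replicate 2 of 3 weeks, and the other 2 older samples lay above all 3 young ones. The means were 7.43 ± 2.03 (SD, n = 3) and 4.6 ± 0.692 (SD, n = 3), and the log2 fold change was 0.57 (standard error 0.22, 95% interval 0.02 to 1.11; limma, adjusted p = 0.192). The gene overlaps *Rnf31* over 123 bases on the same strand, and 1.67% of its 50-base windows occur in other genes.

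*Irf7*, the regulator that amplifies interferon production (chromosome 7, 141262706 to 141266481), had 1.93, 1.22 and 4.87 FPKM at 18 months and 0.923, 2.11 and 1.01 FPKM at 3 weeks. Only replicate 3 of 18 months stood above the young range. The log2 fold change was 0.56 (standard error 0.40, 95% interval −0.44 to 1.56; limma, adjusted p = 0.451), and 0.16 without that replicate and 0.86 without replicate 2 of 18 months.

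*Ifit1*, which encodes a sensor of viral RNA caps (chromosome 19, 34640871 to 34650009), had 4.31, 1.8 and 0.0432 FPKM at 18 months and 0.757, 3.5 and 0.715 FPKM at 3 weeks. The 3 older samples spanned 99.6-fold, from about 246 fragments in replicate 1 to about 2.56 in replicate 3, and the young ones 4.9-fold. The means were 2.05 ± 2.14 (SD, n = 3) and 1.66 ± 1.6 (SD, n = 3), and the log2 fold change was 0.06 (standard error 0.69, 95% interval −1.64 to 1.77; limma, adjusted p = 0.966). The spread within an age was far larger than the difference between ages. The estimate turned to −0.36 with a pseudocount of 0.1. Of its 50-base windows, 7.13% occur in other genes, nearly all of them in *Ifit1bl2*.

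*Ifit3*, the partner of *Ifit1* (chromosome 19, 34583531 to 34588731), had 0, 0.0344 and 0.303 FPKM at 18 months and 4.90, 3.80 and 0.108 FPKM at 3 weeks. It reached 1 FPKM in 2 of the 6 samples, both of 3 weeks, and was not tested. Its values cannot be read alone, since 51.2% of its 50-base windows occur in *Ifit3b*. *Ifit3b* had 8.63, 0 and 15.1 FPKM at 18 months and 2.72, 5.01 and 2.01 FPKM at 3 weeks, so that *Ifit3* held 0%, 100% and 1.96% of the sum of the pair at 18 months and 64.3%, 43.1% and 5.1% at 3 weeks. The sum of both was 8.63, 0.0344 and 15.4 FPKM at 18 months and 7.62, 8.81 and 2.12 FPKM at 3 weeks. Replicate 2 of 18 months, which was nearly empty for both copies, and replicate 3, which held the highest sum, lay at opposite ends. At 18 months the mean sum was 8.03 ± 7.71 (SD, n = 3), and at 3 weeks it was 6.18 ± 3.57 (SD, n = 3). On the log2 scale, where the nearly empty sample weighs more, the fold change of the sum, an alternative chosen after the values were seen, had the other sign, −0.23 (standard error 1.11, 95% interval −2.97 to 2.51; limma, adjusted p = 0.921).

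**Figure D2:**
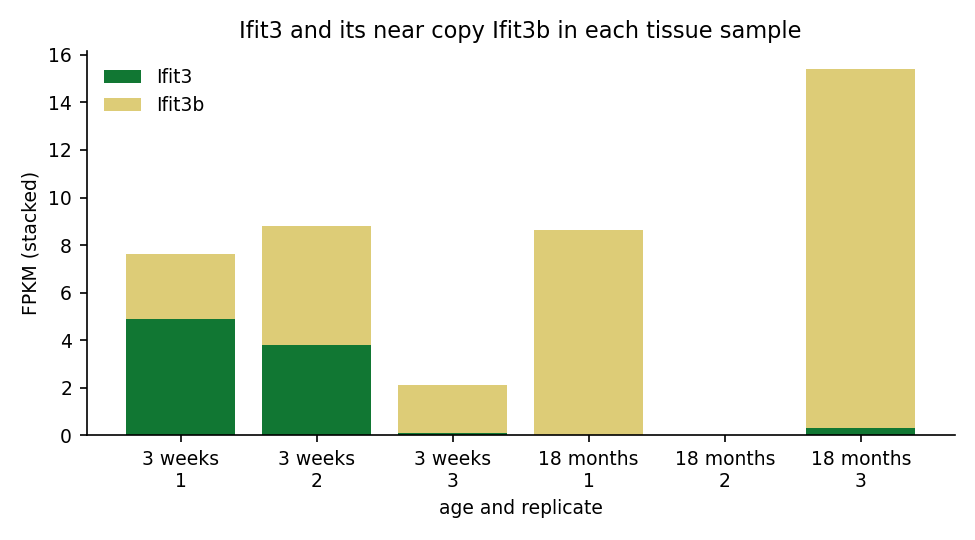
Stacked FPKM (vertical axis) of *Ifit3* (green) and *Ifit3b* (yellow) in each tissue sample (horizontal axis, age and replicate). *Ifit3* held 64.3% and 43.1% of the sum in replicates 1 and 2 of 3 weeks and under 2% in replicates 1 and 3 of 18 months, and replicate 2 of 18 months had a sum of only 0.0344.

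*Oasl2* (chromosome 5, 114896936 to 114912234) had the largest standard error of the 6. It stood at 8.42, 2.70 and 13.6 FPKM at 18 months and at 2.52, 7.95 and 0.759 FPKM at 3 weeks. The highest sample was replicate 3 of 18 months and the lowest replicate 3 of 3 weeks, but replicate 2 of 3 weeks lay above replicate 2 of 18 months and close to replicate 1. The log2 fold change was 1.07 (standard error 0.75, 95% interval −0.79 to 2.93; limma, adjusted p = 0.437). It was 0.63 and 0.51 without replicate 3 of 18 months or of 3 weeks, and 1.62 and 1.68 without replicate 2 of 18 months or of 3 weeks.

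*Ifitm3*, which blocks the entry of enveloped viruses (chromosome 7, 141009586 to 141010770), had 64.7, 69.9 and 37.8 FPKM at 18 months and 35.6, 68.6 and 45.1 FPKM at 3 weeks. High and low samples occurred at both ages. The log2 fold change was 0.21 (standard error 0.33, 95% interval −0.61 to 1.02; limma, adjusted p = 0.74). Of its 50-base windows, 10% occur in other genes, *Ifitm2* among them.

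*Ifi27*, the small membrane protein gene (chromosome 12, 103434211 to 103440239), had 41.7, 22.3 and 46.8 FPKM at 18 months and 22.7, 13.4 and 19.0 FPKM at 3 weeks. Replicates 1 and 3 of 18 months lay above all young samples, and replicate 2 lay just below replicate 1 of 3 weeks. The means were 37.0 ± 12.9 (SD, n = 3) and 18.4 ± 4.69 (SD, n = 3), a ratio of 2.01, and the log2 fold change was 0.93 (standard error 0.33, 95% interval 0.11 to 1.75; limma, adjusted p = 0.164). None of its 50-base windows occur in another gene. *Ifi27l2a*, a relative, stood at 3.6, 1.6 and 5.12 FPKM at 18 months and 1.3, 0.243 and 0.79 FPKM at 3 weeks. Its log2 fold change was 1.28 (standard error 0.38; limma, adjusted p = 0.123).

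By their mean over the 6 tissue samples the genes ranked *Ifitm3* (53.6 FPKM), *Ifi27* (27.7), *Irf9* (6.02), *Oasl2* (5.99), *Irf7* (2.01) and *Ifit1* (1.85), with *Ifit3* left out because its reads may be split with *Ifit3b*. The step from *Ifi27* to *Irf9* held in 6 of 6 samples, and *Ifitm3* lay above *Ifi27* in 5 of 6 and *Oasl2* above *Irf7* in 5 of 6. *Irf9* and *Oasl2*, and *Irf7* and *Ifit1*, each stood above the other in 3 of 6 samples, so these neighbours had no fixed order.

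The samples of 18 months fell in a similar order across many interferon-stimulated genes, and those of 3 weeks less clearly so. Over the 7 genes together with the other interferon-stimulated genes of a mean of at least 0.2 FPKM, 71 in all, replicate 2 was the lowest of the 3 older samples in 50 genes (70.4%), and replicate 3 was the highest in 47 (66.2%). Across all genes tested these shares were 29.2% and 40.2%. At 3 weeks, replicate 3 was the lowest in 40 of the 71 (56.3%), against 39.8% of all genes tested. The highest young sample was replicate 1 in 31 (43.7%) and replicate 2 in 28 (39.4%), against 38.6% and 27.5%. Among the 7 genes alone, replicates 1 and 3 of 3 weeks were each the lowest young sample in 3. The summed FPKM of the 7 genes was 129, 103 and 113 at 18 months and 71.6, 105 and 70.9 at 3 weeks, so the highest young sample, replicate 2, lay above the lowest older one, replicate 2. Genes that are regulated together are not independent, and these shares are descriptions.

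**Figure D3:**
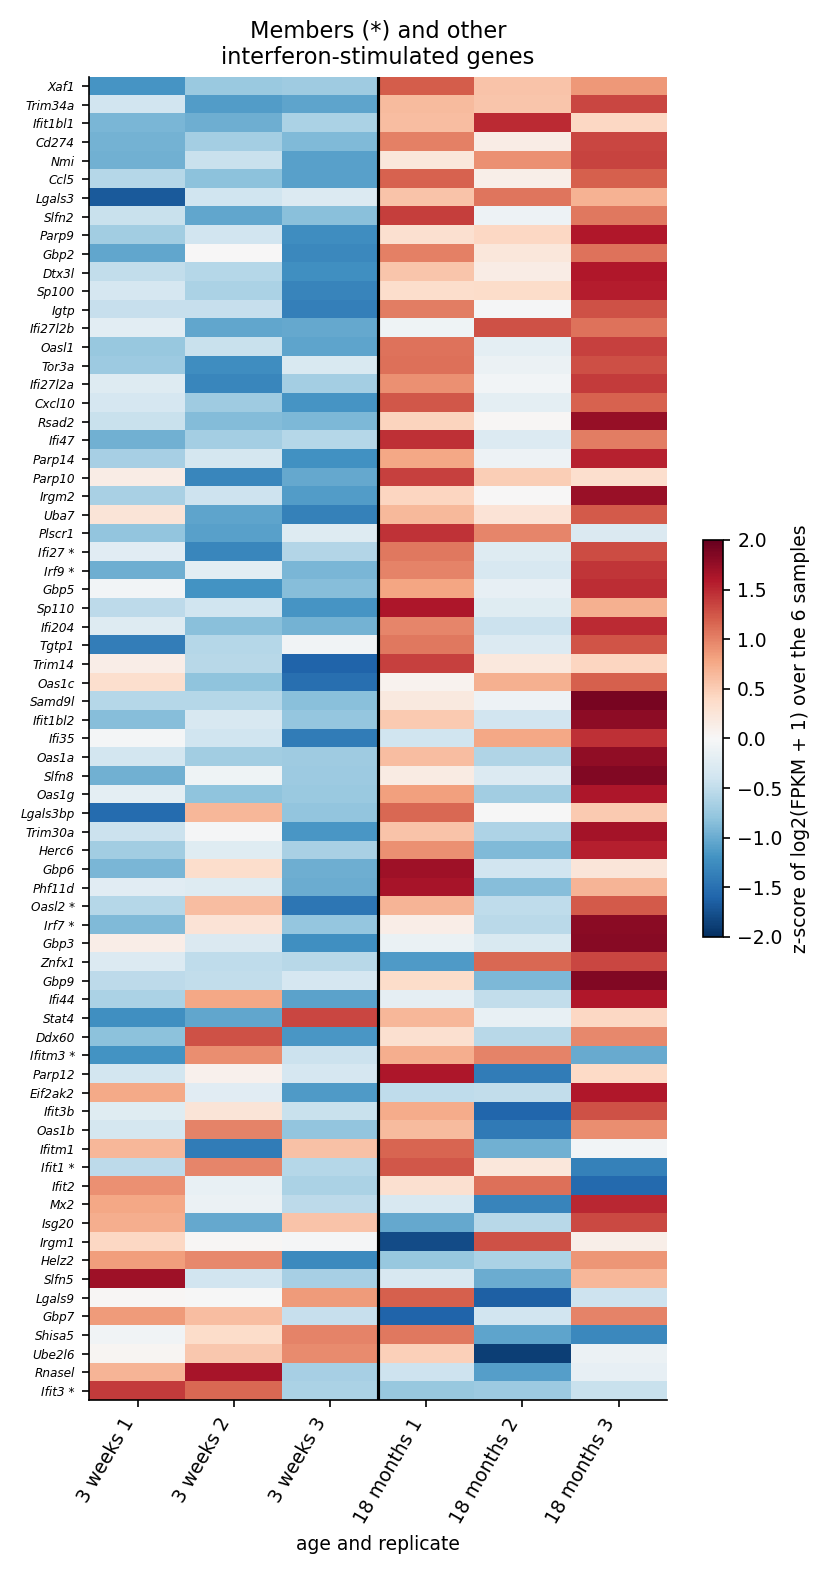
Each row is 1 of the 71 genes, marked with * for the 7 genes of the set, and each column 1 tissue sample; colour gives the z-score of log2(FPKM + 1) over the 6 samples, and rows are sorted by the difference of the mean z-score between the ages. Replicate 2 of 18 months was the lowest of its age in 50 of the 71 genes, and the marked genes are spread from *Ifi27* and *Irf9* in the upper part to *Ifit3* in the last row.

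The wider pathway was read from lists of 144 further genes by role, of which 122 were in the tissue table and 66 were tested. Among these, *Irf1* and *Xaf1* passed the test, both higher at 18 months, and none passed as lower, which is 2 of 66 beside the 2.51% and 2.42% of all genes tested. *Irf1*, a transcription factor induced by interferon gamma, had 3.08, 4.17 and 3.69 FPKM at 18 months and 1.58, 1.43 and 1.78 at 3 weeks (log2 fold change 0.84, standard error 0.14; limma, adjusted p = 0.0327). *Xaf1*, an interferon-induced gene linked to apoptosis, had 8.31, 5.55 and 6.75 FPKM at 18 months and 1.49, 2.17 and 2.24 at 3 weeks (log2 fold change 1.40, standard error 0.19; limma, adjusted p = 0.0197). In both genes the ages did not overlap. Both stayed past the test without replicate 1 of 18 months, *Xaf1* also without replicate 2 of 18 months, and neither without replicate 3 of 18 months or without any one of the 3 young samples. With no filter on low values *Irf1* did not pass. Over the 66 genes the median log2 fold change was 0.26, with 47 estimates above 0, beside 0.09 and 58.8% for all genes tested.

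By role, of 10 interferon genes in the table, 8 were listed at 0 in every sample, *Ifnb1* among them, and the highest value was 0.0603 FPKM for *Ifnk*. A listed 0 does not show that a gene is off, since *Olig1*, a gene of the oligodendrocyte list, was also listed at 0 in all 6 samples. None of the 5 tested receptor genes passed, with a median of 0.07. *Ifnar1* had a log2 fold change of −0.24 (limma, adjusted p = 0.464) and *Ifngr1* one of 0.29 (limma, adjusted p = 0.35). The 7 tested interferon regulatory factors had a median of 0.08, the 7 sensors and adaptors 0.09 and the 10 negative regulators 0.11. *Usp18*, which removes ISG15 and damps the receptor, had 3.92, 1.11 and 4.24 FPKM at 18 months and 1.04, 1.55 and 0.76 at 3 weeks (log2 fold change 0.86; limma, adjusted p = 0.246), and again replicate 2 of 18 months lay in the young range.

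The 34 tested genes of the list of other interferon-stimulated genes had a median log2 fold change of 0.46. *Xaf1* alone passed the test, 15 of the 34 were higher at an unadjusted p under 0.05, and in 15 all older samples lay above all young ones, beside 15.4% and 20.9% of all genes tested. Of 37 further genes of that list that were measured but too low to be tested, 15 had all older samples above all young ones, where 10.2% of the 12860 untested genes with any value above 0 did. *Cxcl10*, which encodes a chemokine that attracts T cells, was one of these, with 2.25, 0.841 and 2.17 FPKM at 18 months and 0.742, 0.501 and 0.248 at 3 weeks. *Rsad2*, which encodes the antiviral enzyme viperin, had 0.951, 0.681 and 2.08 FPKM at 18 months and 0.417, 0.22 and 0.212 at 3 weeks. Both had their lowest older value in replicate 2 and a gap to the young samples. Whether these shares differ from those of the 7 genes was not tested.

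**Figure D4:**
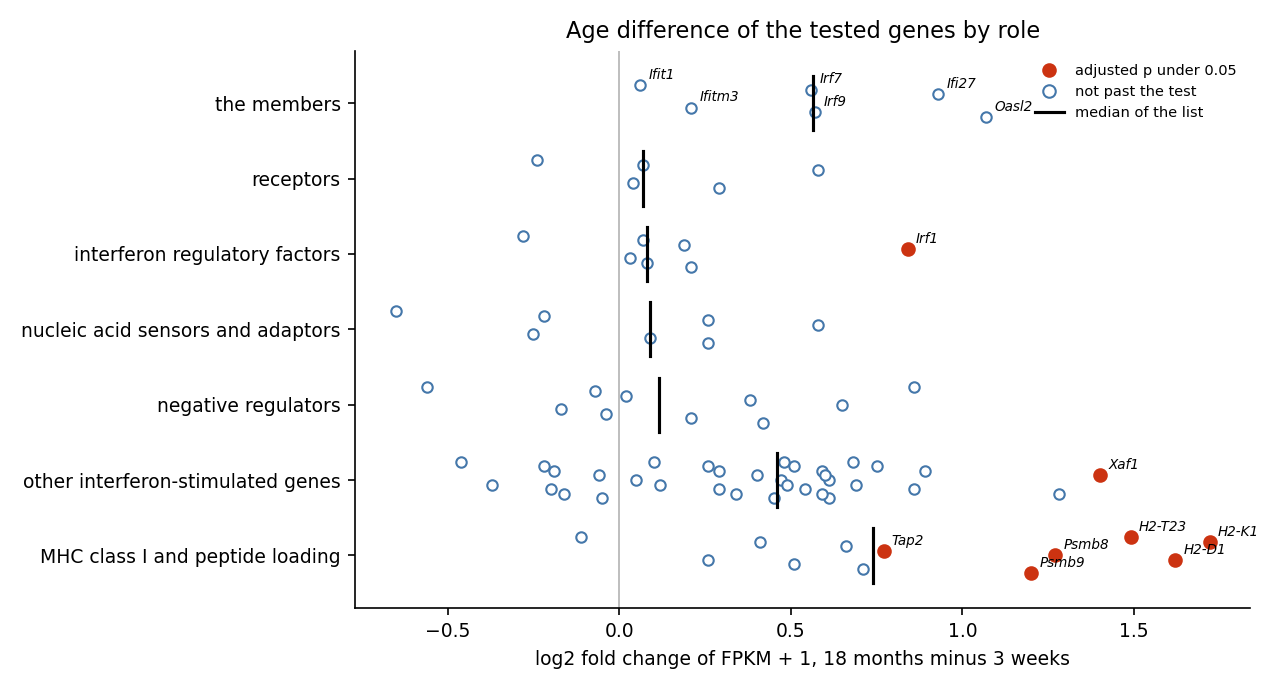
Log2 fold change of FPKM + 1, 18 months minus 3 weeks (horizontal axis), of each tested gene by role (vertical axis); red filled points passed limma's test with an adjusted p under 0.05, open points did not, and black bars are list medians. The 6 members lie between 0.06 and 1.07 and none is filled, while *Irf1*, *Xaf1* and 6 genes of MHC class I presentation are.

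Interferons also induce the genes of MHC class I presentation. Of 12 tested, 6 passed as higher (*H2-D1*, *H2-K1*, *H2-T23*, *Tap2*, *Psmb8* and *Psmb9*), none as lower, and the median was 0.74, beside 2.51% higher and a median of 0.09 over all genes tested. With no filter 4 passed. *H2-D1* and *H2-T23* passed whichever sample was left out, while 5 of the genes passed without replicate 1 of 18 months, 3 without replicate 2 or 3 of 18 months or replicate 3 of 3 weeks, and 2 without replicate 1 or 2 of 3 weeks. *H2-D1* had 36.0, 27.4 and 38.1 FPKM at 18 months and 11.2, 10.1 and 9.43 at 3 weeks (log2 fold change 1.62, standard error 0.16; limma, adjusted p = 0.0082). *H2-K1* had 17.8, 27.0 and 38.4 FPKM at 18 months and 7.94, 6.82 and 7.39 at 3 weeks (log2 fold change 1.72, standard error 0.28; limma, adjusted p = 0.0317). *B2m*, the shared light chain, did not pass, with a log2 fold change of −0.11 (limma, adjusted p = 0.811). Class I genes are a family of near copies, and reads may have been split among them.

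Markers of other cell types moved with age beside these genes. Over all genes tested, 2.51% passed as higher and 2.42% as lower. At an unadjusted p under 0.05, 24.3% of all genes tested were called, 15.4% as higher. Of 17 tested microglia markers, *Ctss* passed as higher (0.95; limma, adjusted p = 0.0176), 6 were higher and 1 lower at an unadjusted p under 0.05, the median was 0.42, the summed FPKM of the list was 556 to 642 at 18 months and 427 to 557 at 3 weeks, and the defining marker *P2ry12* had a log2 fold change of −0.64 (limma, adjusted p = 0.334). Of 8 T and NK cell markers too low to test, *Cd3e*, *Cd3g*, *Cd8a*, *Cd8b1* and *Nkg7* had all older samples above all young ones, at 0.0464 to 0.475 FPKM in the older samples and at most 0.038 in the young ones. Of all untested genes with any value above 0, 10.2% did. The whole T and NK list summed to 34.4 to 49.2 FPKM at 18 months and 43.4 to 49.8 at 3 weeks. Its 2 tested genes had log2 fold changes of −0.23 and 0.24. No endothelial marker of 12 passed, with a median of −0.16 and *Pecam1* at −0.15 (limma, adjusted p = 0.626), and 2 were lower and none higher at an unadjusted p under 0.05. Ependymal markers summed to 196 to 229 FPKM at 18 months and 148 to 179 at 3 weeks, with 5 of 7 higher at an unadjusted p under 0.05, and neuron markers to 2200 to 2700 and 1170 to 1800, with 3 of 7 higher, and none of either list passed the adjusted test. Astrocyte markers summed to 714 to 987 and 659 to 1060 FPKM with none of 7 past the test, and of 5 tested fibroblast and meningeal markers 1 passed as lower. Without adjustment, at p under 0.05, 1 astrocyte marker was higher, and 3 fibroblast and meningeal markers were lower and 1 higher. Of 9 tested oligodendrocyte markers 5 passed as lower, with a summed FPKM of 4000 to 4690 at 18 months and 20500 to 22700 at 3 weeks, and of 8 neuroblast markers 4 and of 9 active stem cell markers 2 passed as lower. Without adjustment, at p under 0.05, 7, 6 and 6 genes of these lists were lower, in that order, and none was higher. Of 8 tested immediate early and stress genes *Atf3* passed as higher (1.34; limma, adjusted p = 0.0154), and the list had a median of −0.02 and sums of 641 to 702 FPKM at 18 months and 686 to 823 at 3 weeks. The part of these cell types in the values of the interferon response genes was not tested.

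The genes whose pattern over the 6 samples was most like that of the tested members, by Pearson's r with the mean of their z-scores, were *Fcgr1* (0.988), *Chid1* (0.988), *Cd33* (0.984), *D1Ertd622e* (0.98) and *6430584L05Rik* (0.98). *Fcgr1* encodes a high-affinity Fc receptor of phagocytes, and had 3.05, 2.57 and 2.85 FPKM at 18 months and 2.33, 2.76 and 2.19 at 3 weeks. It had its lowest older value in replicate 2 and its highest young value in replicate 2. None of the 5 passed the test, and they were picked as the highest of all tested genes outside the lists.

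In the single cells, most of the 9 genes were rarely seen, like most genes of the table, and of the 9 *Ifi27* was seen most often. Of 198 values (9 genes in 22 cells), 29 were above 1 FPKM and 18 of these were *Ifi27*. The other 8 genes were above 1 FPKM in 11 of 176 values. Above 1 FPKM in at least 3 cells were *Ifi27*, *Irf9* and *Isg15*, 3 of 9, which is close to the 29.8% of all genes in the table. Every cell had 4398 to 6626 of the 37974 genes above 1 FPKM. *Ifit3* and *Oasl2* were listed at 0 in all 22 cells, which does not show that they are off, since *Actb*, a gene that every cell uses, was also listed at 0 in 6 of the 22 cells. A median Prom1+ cell of 24 months had 2 of the 9 genes above 1 FPKM, a median Prom1+ cell of 1 month 0, and the median was 1 in each of the other 4 groups. With a limit of 0 FPKM the median Prom1+ cell had 3 of the genes at both ages.

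**Figure D5:**
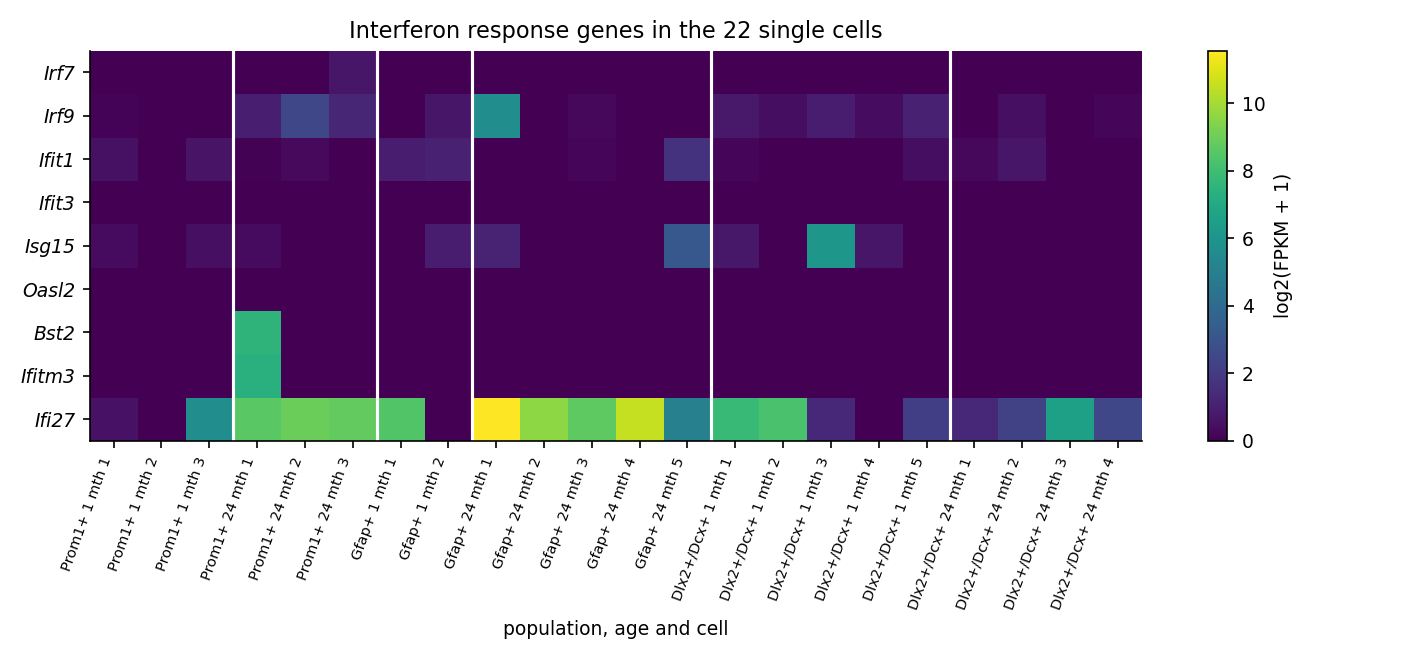
log2(FPKM + 1), by colour, of the 9 genes (rows) in the 22 cells (columns, by subpopulation, age and cell number). *Ifi27* is bright in all Prom1+ and Gfap+ cells of 24 months, at 31.5 to 3028 FPKM, and in 5 other cells, at 50.2 to 340 FPKM. The other squares above 31.5 FPKM are *Ifitm3* and *Bst2* in 1 Prom1+ cell, *Irf9* in 1 Gfap+ cell and *Isg15* in 1 Dlx2+/Dcx+ cell.

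The subpopulations carried the transcripts that name them, which also served to pick the cells. *Gfap* was at 48.7 to 194 FPKM in the Gfap+ cells and at most 0.332 elsewhere, and *Dcx* at 15.8 to 267 FPKM in the Dlx2+/Dcx+ cells and at most 0.516 elsewhere. *Prom1* was at 1.49 to 56.6 FPKM in the Prom1+ cells and reached 6.29 FPKM in a Dlx2+/Dcx+ cell of 1 month. The Gfap+ cells had 11 or 12 of 12 oligodendrocyte markers above 1 FPKM, at a summed 39094 to 96988 FPKM, so they are called by their label only. Of 10 ependymal markers, 0 to 2 were above 1 FPKM in each Prom1+ cell, with sums of 0.0184 to 110 FPKM, and *Foxj1* was above 0 in none of them.

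*Ifi27* stands in the cell table under the symbol *Ifi27l1* and was matched by its identifier. In Prom1+ cells it had 393, 497 and 441 FPKM at 24 months and 0.459, 0 and 50.2 FPKM at 1 month. All 3 cells of 24 months lay above all 3 of 1 month, with mean log2(FPKM + 1) of 8.79 and 2.07, a difference of 6.71 (SD within an age 2.22). With 1 cell left out this difference ran from 5.68 to 8.52. In Gfap+ cells it had 3028, 779, 409, 1490 and 31.5 FPKM at 24 months and 340 and 0 FPKM at 1 month, and the ages overlapped. In Dlx2+/Dcx+ cells it had 1.53, 3.73, 93.3 and 4.42 FPKM at 24 months and 228, 298, 1.47, 0 and 3.38 FPKM at 1 month, a difference of −0.75 (SD within an age 3.18), which turned to 0.23 or 0.33 without cell 1 or cell 2 of 1 month and to 0.21 with medians in place of means. The gene was thus at least 31.5 FPKM in all 8 Prom1+ and Gfap+ cells of 24 months, while the other 4 groups each held a cell at 1.53 FPKM or less beside a cell of 50.2 FPKM or more.

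*Irf9* was the only other gene whose Prom1+ cells did not overlap between ages, at 0.929, 4.44 and 1.33 FPKM at 24 months and 0.0693, 0 and 0 FPKM at 1 month. Of the 7 genes with any value in Prom1+ cells, 2 were thus wholly higher at 24 months, beside 3.36% of the 14966 genes seen in these cells, and none was wholly lower, beside 3.35%. The *Irf9* values of 0.929 and 1.33 FPKM are low, and fragments were not estimated for this gene, which has 7 transcripts. It also overlaps *Rnf31* on the same strand. In Gfap+ cells *Irf9* reached 49.3 FPKM in 1 cell of 24 months and was at most 0.19 FPKM in the other 4. In Dlx2+/Dcx+ cells it was at 0.293 to 1.08 FPKM at 1 month and at 0 to 0.408 FPKM at 24 months, and the ages overlapped. None of the genes separated the ages in Gfap+ or Dlx2+/Dcx+ cells, where 2.4% and 0.551% of genes were wholly higher and 2.86% and 0.844% wholly lower.

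The low values rested on few fragments. *Ifit1* was above 0 in 12 of 22 cells and above 1 FPKM in 2, both Gfap+, at 2.26 FPKM (about 10.1 fragments) at 24 months and 1.12 FPKM (about 6.07) at 1 month. The value of 0.861 FPKM in the other Gfap+ cell of 1 month stood for about 1.01 fragments, and that of 0.424 FPKM in a Prom1+ cell of 1 month for about 7.03, so low FPKM cannot be ranked across cells of such unequal depth. *Isg15* reached 69.0 FPKM (about 160 fragments) in 1 Dlx2+/Dcx+ cell of 1 month and 8.02 FPKM (about 10.2) in 1 Gfap+ cell of 24 months. Its remaining 7 values above 0, up to 1.20 FPKM, stood for about 1.26 to 1.29 fragments each. *Irf7* was above 0 in 1 cell, a Prom1+ cell of 24 months, at 0.604 FPKM.

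*Ifitm3* and *Bst2* were above 0 in a single cell, and it was the same one. Prom1+ cell 1 of 24 months had 162 FPKM of *Ifitm3*, about 722 fragments, and 183 FPKM of *Bst2*, and both were listed at 0 in the other 21 cells. This cell also had the highest values of the 22 cells for *Stat2* (33.8 FPKM), *Samd9l* (84.5), *Epsti1* (72.8), *Usp18* (89.9) and *Herc6* (31.5), genes named after their values were seen. Other cells were higher for *Ifitm2*, at 130 FPKM in a Prom1+ cell of 1 month against 74.3, for *Eif2ak2*, at 141 in a Gfap+ cell of 24 months against 56.7, and for *Xaf1*, at 321 in a Gfap+ cell of 24 months against 24.0. Its *Isg15* and *Ifit1*, at 0.257 and 0.0579 FPKM, stood for about 1.28 and 1.01 fragments. It held 13 of 79 other interferon-stimulated genes above 1 FPKM, where the other 21 cells held 3 to 15, and only Prom1+ cell 3 of 24 months held more. The summed FPKM of that list was 403 in it and 593 to 826 in 4 other cells. Its microglia markers summed to 0.926 FPKM with none of 20 above 1, its endothelial markers to 0.591 with none of 14 above 1, its fibroblast and meningeal markers to 8.84 with 1 of 8 above 1, the highest such sum of the 22 cells, its ependymal markers to 34.7 with 1 of 10 above 1, its astrocyte markers to 322 with 4 of 10 above 1 and its oligodendrocyte markers to 37.2 with 3 of 12 above 1. In it, *P2ry12*, *Csf1r*, *Cldn5*, *Pecam1* and *Flt1* were all listed at 0. These zeros do not set the cell apart, since *P2ry12*, *Cldn5* and *Pecam1* were listed at 0 in every cell and *Csf1r* in all but Gfap+ cell 5 of 24 months. This cell had *Prom1* at 20.2 FPKM and *Cx3cr1*, a further microglia marker, at 0.926 FPKM. It was also the deepest cell, at about 6580000 fragments, beside a Prom1+ cell of 1 month at about 6250000 fragments in which both genes were listed at 0.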

How the data were processed

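Total RNA of EZ-SEZ/SVZ tissue (6 samples) and 22 Smart-seq2 cells were measured. The authors deposited FPKM for each, made by HISAT2 alignment to GRCm38 and StringTie, and the submitters' processing notes also name featureCounts. Versions and the annotation are not given in the sources used here. Because FPKM are not counts, no count test was run, although the study used one. Groups came from the sample labels. The 9 genes and all lists were chosen with earlier results of these data known. Identifiers were matched to GENCODE symbols of GRCm38, and the files held no other per-sample columns. The signal transducers are counted among the pathway genes and not reported here by themselves.

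The 12287 genes that reached 1 FPKM in 3 or more tissue samples were tested in R 4.3.3 by limma 3.58.1, with lmFit and a mean-variance trend in eBayes, on log2(FPKM + 1), which understates the change of low genes, with Benjamini-Hochberg adjustment. The fit was tested on simulated data. Depth was estimated in genes with 1 transcript of over 500 bases, where 71.7% to 72.8% of values under 3.5 steps in the tissue, and 51.6% to 67.6% in cells, lay within 10% of a whole number of fragments, so precision at low values is limited by counting. Cells and sequences were read with Python 3.11.15 and pandas 2.3.3. Shared sequence is the share of a gene's 50-base transcript windows found in another gene. Genes named beside the 9 are pathway genes past the test, examples from the lists, defining markers and the 5 genes most like the members, and others are marked as chosen later. Alternatives were a pseudocount of 0.1, no filter, TPM scaling, quantile normalization, the study's limits, a replicate block, other detection limits in cells, medians in place of means, and each sample left out.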

Additional observations from a re-analysis of the deposited data

Results flagged for a closer look

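In groups of 4 or 5 cells, 3 values of 11 gene and group pairs with any spread stood far from the other cells of their group on the log2(FPKM + 1) scale by Dixon's 95% limit, which compares single cells and not the ages. Chance flags about 1 group in 20, and genes seen in a single cell meet the limit easily. *Ifit1* was at 2.26 FPKM in Gfap+ cell 5 of 24 months, and the next of the 5 cells had 0.165. *Irf9* was at 49.3 FPKM in Gfap+ cell 1 of 24 months, and the next had 0.19. *Isg15* was at 69.0 FPKM in Dlx2+/Dcx+ cell 3 of 1 month, and the next had 0.68. In Gfap+ cell 1 the microglia markers summed to 122 FPKM, with 2 of 20 above 1 FPKM. The other Gfap+ cells of 24 months had sums of 1.68 to 8.86. *Cx3cr1* was at 3.96 FPKM in cell 1, and at 0.446 to 4.07 over the Gfap+ cells of 24 months. *P2ry12* and *Csf1r* were listed at 0 in it, but *P2ry12* was so in every cell and *Csf1r* in all but Gfap+ cell 5 of 24 months. The neuroblast markers of Gfap+ cell 1 summed to 480 FPKM with 6 of 10 above 1, against 12 to 49 in the other Gfap+ cells of 24 months. Its endothelial markers summed to 738 with 1 of 14 above 1, against 257 to 684 in those cells. In Gfap+ cell 5 of 24 months the neuron markers summed to 407 FPKM, with 1 of 10 above 1. The other Gfap+ cells of that age had 0.348 to 1.25. Its astrocyte markers summed to 2716 FPKM, against 295 to 1704 in those cells. In Dlx2+/Dcx+ cell 3 of 1 month the astrocyte markers summed to 628 FPKM, against 93.9 to 265 in the other cells of its group. The part of these markers in the 3 values was not tested.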

How the results depend on the processing

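No member passed the test in the tissue under any alternative, and the median log2 fold change of the tested members stayed above 0, at 0.47 to 0.82 when a sample was left out. *Ifit1* turned to −0.36 with a pseudocount of 0.1 and to −0.08 with TPM scaling, and ran from −0.48 to 0.69 when a sample was left out, and *Ifitm3* ran from 0 to 0.48. With samples left out, 134 to 719 genes passed, against 605, so the count moved in both directions, and 0 to 2 further pathway genes passed. Without a filter 1 further pathway gene passed (*Xaf1*). With the replicate number as a block, 17 genes passed, with 0 pathway genes and 0 genes of MHC class I presentation among them. Same-numbered samples did not deviate together (correlations of −0.096, −0.011 and −0.098), which does not show that they shared no handling. *Ifit3* was tested only without a filter (−1.51) and with TPM scaling (−2.37), and passed in neither (limma, adjusted p = 0.322 and 0.224). In cells, the median number of members above the limit in Prom1+ cells was 3 at 1 month and 3 at 24 months with a limit of 0 FPKM, and 1 at 24 months with a limit of 5. With a limit of 0 it was 2.5 and 3 in Gfap+ cells of 1 and 24 months and 3 and 2 in Dlx2+/Dcx+ cells. With a limit of 5 it was 0.5 in Gfap+ cells of 1 month, as with TPM scaling, and 0 in Dlx2+/Dcx+ cells of 24 months. With a cell left out it ran from 0 to 0.5 and 2 to 2.5 in Prom1+ cells, 1 to 1 and 1 to 2 in Gfap+ cells, and 1 to 1.5 and 1 to 1 in Dlx2+/Dcx+ cells of 1 and 24 months. The cause of these moves was not tested. In cells, 17 recomputed age differences moved by more than the spread within an age, and genes listed at 0 throughout a subpopulation could not move. Depth limits low values in the cells, where 1 fragment of *Ifit1* was worth 0.0572 to 0.855 FPKM.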
